A study of Mus musculus with 33 samples.

Results

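Ribosome footprints were set against RNA in the resting hippocampus of B6N mice. The members were the 6 hippocampus libraries that the labels give as wild-type for n-Tr20, a neuronal tRNA gene, of 33 libraries in the series: 3 of RNA (B6N 1 to 3) and 3 of ribosome-protected fragments (B6N 1 to 3). They were chosen by label alone, with no measured value. Per the labels all came from C57BL/6NJ mice 8 weeks old, and no library of this comparison carried a deletion, a transgene or a treatment. The column headers of the RNA files and part of the protocol name B6JN mice, so the strain background is less certain than the label. The series as a whole compared knockout and transgenic mice for this tRNA gene. Of its other libraries, the 6 hippocampus libraries of knockout mice (B6N-nTr20-/-, 3 of RNA and 3 of footprints) and the 4 RNA libraries of B6N forebrain are used here only as a second reading of the same genes.

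Ribosome profiling sequences the short pieces of mRNA that a translating ribosome shields from nuclease. The number of footprints on a gene, set against the number of its mRNA molecules, is a measure of how many ribosomes each mRNA carries. RNA counts also grow with transcript length, so the ratio of counts used here is not that number. Several classes of mRNA are known to carry few ribosomes at rest. Atf4 and its relatives have short upstream open reading frames (uORFs) that hold ribosomes away from the main coding sequence until the factor eIF2 is phosphorylated. The mRNAs of ribosomal proteins begin with a run of pyrimidines (the 5′ terminal oligopyrimidine, or TOP, motif). Through it they are held back when the growth-sensing kinase mTOR is inactive. The ferritin mRNAs carry a hairpin that binds iron regulatory proteins.

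The 3 RNA libraries held 41051208, 49535255 and 42242750 counts over 54752 genes, and the 3 footprint libraries held 9957322, 9072583 and 11208310 counts over 22523 genes. All 22523 genes of the footprint files were also in the RNA files, where they took 97.0% to 97.3% of the counts. Levels are given as CPM, counts per 1000000 counts of those shared genes, after scaling within each assay. RNA was selected by its poly(A) tail and read without strand, and no such selection is given for footprints. Per the labels all RNA libraries were of batch 3 and all footprint libraries of batch 4, so the assay and the batch cannot be told apart, and a ratio here always holds both. Nothing in the labels says which samples came from separate animals, so the p-values measure only the spread between these samples.

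Of the 22523 genes, 14838 had enough counts to be tested. For each, the log2 ratio of footprints to RNA was fitted with edgeR's quasi-likelihood test and centred so that the median tested gene sat at 0. At that point a gene's CPM in footprints was 0.855 of its CPM in RNA, a log2 of −0.23, which is the shift between the CPM values and the log2 ratios printed here. Whether footprints were counted on the coding sequence alone or on whole exons, uORFs included, is not given in the sources used here. A ratio was not divided by coding length, since no coding lengths were at hand. Values below are log2 ratios ± SE from 3 footprint and 3 RNA libraries.

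Footprints per RNA differed from gene to gene far more than from library to library. Of the 14838 genes, 5439 (36.7%) were called higher than the median gene and 5366 (36.2%) lower, 72.8% in all, at an adjusted p under 0.05. The middle 50% of genes lay between −0.82 and 0.70 and the central 90% between −2.80 and 1.63, against a median SE of 0.12. A stricter test, for a difference of over 2-fold, called 1525 genes higher (10.3%) and 2191 lower (14.8%), while 9311 genes (62.8%) had a fitted ratio within 2-fold of the median gene. In 11365 genes (76.6%) the CPM of the 3 footprint libraries did not overlap those of the 3 RNA libraries. With a share this large called among all genes, a single call says little, and each group below is read against these percentages.

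**Figure D1:**
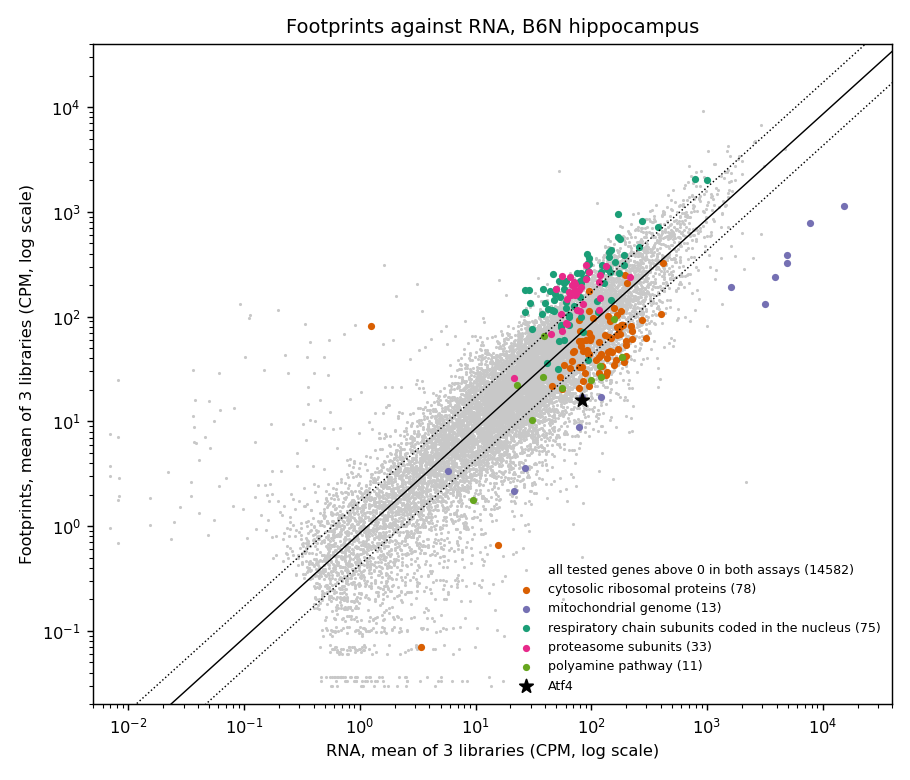
Mean CPM of footprints (y, log scale) against mean CPM of RNA (x, log scale) for the 14582 tested genes above 0 in both assays, with 5 gene groups in colour and Atf4 as a star. The solid line is the median gene and the dotted lines are 2-fold above and below it. Respiratory chain and proteasome subunits lie above the line, ribosomal proteins below it, and the genes of the mitochondrial genome far below at the right.

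Atf4, the transcription factor at the centre of the integrated stress response, carried few footprints for its RNA. Its RNA (Atf4, chr15:80255184-80257545 on mm10) stood at 88.8, 76.5 and 83.8 CPM and its footprints at 13.001, 15.7 and 19.03 CPM. Every footprint library was below every RNA library. The log2 ratio was −2.15 ± 0.13 (adjusted p = 1.30e-07), 4.45-fold below the median gene, and the ratios of the same-numbered libraries were −2.55, −2.06 and −1.91. In B6N forebrain, whose RNA was depleted of ribosomal RNA and not selected by poly(A), Atf4 RNA stood at 78.9 CPM, close to its level in hippocampus RNA.

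Several other targets that shut off or extend the stress response were low as well. Ppp1r15a (GADD34), the phosphatase subunit that removes phosphate from eIF2, had 14.9, 12.9 and 13.1 CPM of RNA and 1.61, 1.21 and 0.983 CPM of footprints, a log2 ratio of −3.20 ± 0.21 (adjusted p = 2.06e-07). Ddit3 (CHOP), a transcription factor of the late, pro-apoptotic phase, had 16.8, 17.3 and 16.7 CPM of RNA and 2.22, 2.30 and 3.13 CPM of footprints (−2.50 ± 0.17, adjusted p = 2.60e-07). No footprint library reached an RNA library in either gene. A second gene ID with the symbol Ddit3, whose transcript has 105 bases, was at 0 in all RNA libraries and at 4.13, 6.58 and 5.45 CPM in footprints, at least 76.7-fold higher, taking 3 counts per library as the limit for a level of 0. Footprints averaged 5.39 CPM on the second ID and 2.55 CPM on the first. The low ratio of the first thus does not cover all footprints under this symbol. The transcription factors Atf5 (−1.87 ± 0.17) and Cebpg (−1.09 ± 0.13), and Slc35a4, whose uORF is itself translated (−1.92 ± 0.13), were also called lower. Other coding genes overlap Ddit3 (Mars1 and Mbd6), Atf5 (Il4i1b and Nup62) and Cebpg (Gm45095). RNA was read without strand, so the ratios of these genes are less certain.

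Genes that act downstream of Atf4 or upstream of it were placed differently. Asns, the asparagine synthetase that Atf4 drives, had 82.9, 74.97 and 83.9 CPM of RNA and 227, 209.8 and 211 CPM of footprints (1.65 ± 0.07, adjusted p = 2.00e-08). Cebpb, a partner of Atf4 with alternative start sites on its mRNA, had the highest ratio after that second Ddit3 ID, with 3.59, 3.54 and 3.15 CPM of RNA and 22.9, 23.4 and 27.1 CPM of footprints (3.06 ± 0.13). The tRNA synthetases Gars (1.42 ± 0.11) and Eprs (0.82 ± 0.07), whose genes Atf4 also drives, were higher. Of the kinases that phosphorylate eIF2, Eif2ak4 (GCN2) was called lower (−0.64 ± 0.09), while Eif2ak1 (HRI, 0.13 ± 0.08, adjusted p = 0.149) and Eif2ak3 (PERK, 0.14 ± 0.10, adjusted p = 0.208) were not called, although with no filter on low counts, which moves the centre, both were (0.28, adjusted p = 0.00771, and 0.29, adjusted p = 0.0209). Ppp1r15b (CReP), the constitutive counterpart of Ppp1r15a, lay at −0.44 ± 0.08. In all, 8 of 21 tested IDs of uORF and stress response genes were called higher and 9 lower, with 5 over 2-fold in each direction and a median of −0.06, so the group as a whole did not sit to one side.

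**Figure D2:**
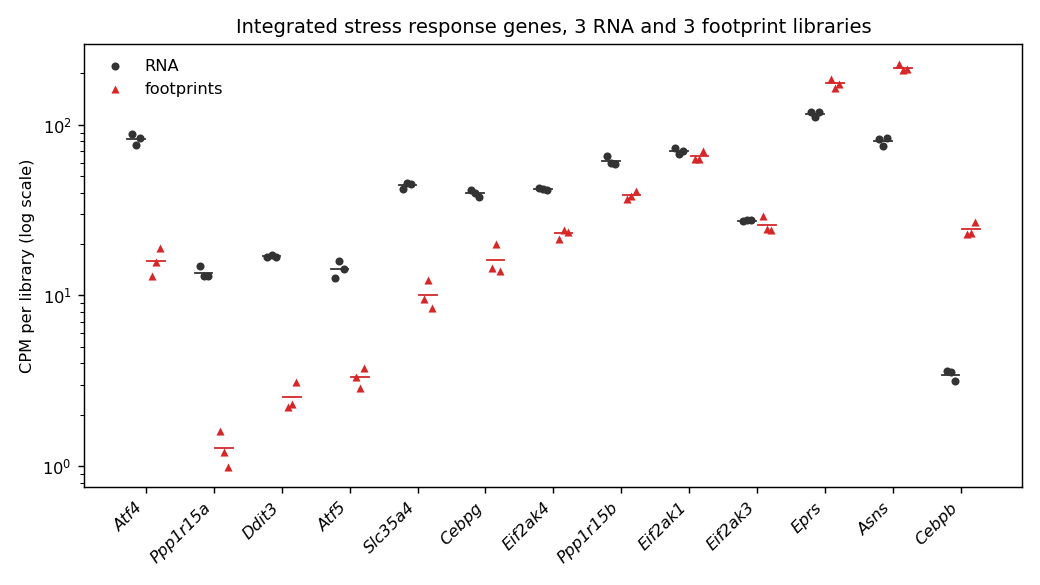
CPM (log scale) of 13 stress response genes in each of 3 RNA libraries (circles) and 3 footprint libraries (triangles), with bars at the means. From Atf4 to Cebpg the footprints lie below the RNA, for Eif2ak1 and Eif2ak3 they overlap or nearly meet it, and for Eprs, Asns and Cebpb they lie above.

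The protein-making machinery split by class: ribosomal proteins carried few footprints per RNA and tRNA synthetases carried many. Of 79 ribosomal protein genes tested, 65 were called lower and 6 higher, against 36.2% and 36.7% of all genes, with 33 lower and 1 higher by over 2-fold (2 higher without footprint library 1) and a median of −1.03. Summed over the 79 genes, RNA ran from 9711 to 10957 CPM and footprints from 4663 to 5290 CPM over the 3 libraries of each kind. The sums did not overlap. Rps6, the subunit phosphorylated downstream of mTOR, had 164, 147 and 164 CPM of RNA and 28.6, 36.7 and 38.3 CPM of footprints (−1.97 ± 0.11, adjusted p = 7.49e-08). Rpl13 (−2.14 ± 0.15) was placed alike. A few members stood on the other side. Rpl8 (0.59 ± 0.07), Rpl38 (0.46 ± 0.13) and Rps21 (0.45 ± 0.12) were called higher.

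The ends of the ribosomal protein list lay with genes whose RNA counts in hippocampus were far below forebrain. Rpl24 had the highest ratio, with 1.57, 0.875 and 1.27 CPM of RNA against 87.9, 86.1 and 71.2 CPM of footprints (6.28 ± 0.18), and stood at 95.8 CPM in forebrain RNA. Rps10 was among the lowest, with 4.07, 2.81 and 3.20 CPM of RNA and 0.101, 0.110 and 0 CPM of footprints (−5.35 ± 0.54, and −4.71 without footprint library 3), against 91.9 CPM in forebrain. Rpl13a (15.4, 15.4 and 16.2 CPM of RNA, 0.403, 0.768 and 0.804 CPM of footprints, −4.34 ± 0.22) stood at 271 CPM in forebrain. How reads that match several near-identical copies were counted is not given in the sources used here, so values of single ribosomal protein genes are uncertain. The 64 members with a named pseudogene in RefSeq had a median of −1.18 and the 15 without one a median of −0.45, and the part of such copies in the result was not tested. Over the 61 members counted well by the criteria given with the extremes below, the median was −0.92.

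The first bases of these mRNAs were read from RefSeq's windows around annotated start sites (GRCm38.p6, the assembly of mm10) for the 58 of 79 members found there. A TOP-like start was taken as a C at the annotated start followed by at least 4 bases that are C or T, on the gene's own strand. By that rule 14 of the 58 (24.1%) had a TOP-like start, against 813 of 27025 genes with a window (3.01%). The 5 low members and the pair Rpl38 and Rps21, which were called higher, are shown because they hold the same kind of start and differ in ratio. Each line gives 10 bases before and 20 bases from the annotated start, 5′ to 3′, with the run of pyrimidines that includes the start in capitals from its first C on.
Rps6 (chr4:86857348-86857377, minus strand): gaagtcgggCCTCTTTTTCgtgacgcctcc
Rps27 (chr3:90213629-90213658, minus strand): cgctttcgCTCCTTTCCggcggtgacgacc
Rps15a (chr7:118116128-118116157, minus strand): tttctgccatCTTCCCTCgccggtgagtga
Rpl15 (chr14:18270967-18270996, minus strand): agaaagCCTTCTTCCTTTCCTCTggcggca
Rps18 (chr17:33955646-33955675, minus strand): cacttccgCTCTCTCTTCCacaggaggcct
Rpl38 (chr11:114668570-114668599, plus strand): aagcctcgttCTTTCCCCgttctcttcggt
Rps21 (chr2:180257369-180257398, plus strand): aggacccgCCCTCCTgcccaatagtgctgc
The ratios of these genes were −1.97 ± 0.11 for Rps6, −1.56 ± 0.12 for Rps27, −1.37 ± 0.10 for Rps15a, −1.27 ± 0.09 for Rpl15, −1.27 ± 0.11 for Rps18, 0.46 ± 0.13 for Rpl38 and 0.45 ± 0.12 for Rps21. The presence of the run did not order the ratios within the group: the 14 members with it had a median of −0.94 and the 44 without it a median of −1.06. Among all tested genes with a window, the 343 with such a start had a median of −0.09 and the 11199 without it −0.01. Annotated starts can miss the true first base by a few positions, and within a 30-base window 65.5% of the 58 members and 39.6% of all genes held a run of this kind.

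Translation factors divided by gene rather than by class, with 17 of 35 called higher, 13 lower and a median of 0.19. The pair of elongation factors that deliver tRNA to the ribosome stood apart from each other. Eef1a1, the widely expressed form, had 2065, 1871 and 2051 CPM of RNA and 547, 713 and 638 CPM of footprints (−1.43 ± 0.10, adjusted p = 3.25e-07). Eef1a2, the form of mature neurons and muscle, had 769.6, 727 and 762 CPM of RNA and 1817, 1977 and 1844 CPM of footprints (1.55 ± 0.07, adjusted p = 2.00e-08). Footprints lay wholly below RNA for the first and wholly above it for the second. The lowest of the group were the poly(A)-binding protein Pabpc4 (−2.49 ± 0.14) and the elongation factor subunit Eef1g (−1.78 ± 0.07), and the start-site factor Eif1 was low too (−1.69 ± 0.08). Eif3k, a subunit of the initiation factor eIF3, had the highest ratio of the group (1.79 ± 0.08), and Eif3c, another subunit, lay at 1.20 ± 0.07.

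All 20 tested cytosolic tRNA synthetases, the enzymes that load amino acids on tRNA, were called higher, with a median of 0.88 and ratios from 0.39 to 1.72. Dars, which loads aspartate, was highest, with 62.9, 60.1 and 61.9 CPM of RNA and 184, 164 and 173 CPM of footprints (1.72 ± 0.07). Iars was lowest at 0.39 ± 0.08, followed by Cars at 0.52 ± 0.09. By the test for over 2-fold, 6 of the 20 passed, and 3 passed by DESeq2, by limma and without RNA library 2 or 3.

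Respiratory chain subunits coded in the nucleus carried many footprints per RNA, while genes of the mitochondrial genome carried few. Of 75 nuclear subunits, 69 were called higher and 2 lower, 54 were higher by over 2-fold, and the median was 1.59. Summed, their RNA ran from 8107 to 8995 CPM and their footprints from 20556 to 21522 CPM. The complex I subunits Ndufb6 (29.8, 23.8 and 26.7 CPM of RNA and 183, 178 and 179 CPM of footprints, 2.98 ± 0.09) and Ndufb2 (29.4, 27.9 and 28.8 and 183, 185 and 171 CPM, 2.87 ± 0.07) led the group. Atp5g3, which codes for subunit c of the ATP synthase, had 174, 167 and 171 CPM of RNA and 1026, 920.4 and 882 CPM of footprints (2.69 ± 0.08). Its close relative Atp5g2, whose mature protein is the same, was called lower (−0.49 ± 0.08). Atp5g2 had 50.9, 50.8 and 52.96 CPM of RNA and 32.05, 30.7 and 31.5 CPM of footprints. Its RNA stood at 7.99 CPM in B6N forebrain, far below hippocampus RNA, so its ratio is less certain. Cox7c, a small cytochrome oxidase subunit, was the other subunit called lower (−1.06 ± 0.27, adjusted p = 0.0124).

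The 13 protein-coding genes of the mitochondrial genome are translated by the ribosomes of the mitochondrion, which the profiling protocol was not designed for. Of the 13, 12 were called lower, 9 by over 2-fold, with a median of −3.08. Their summed RNA ran from 36154 to 50539 CPM and their summed footprints from 2188 to 4634 CPM. mt-Co1, a cytochrome oxidase subunit, had 13293, 17983 and 14420.0 CPM of RNA and 1627, 728 and 1055 CPM of footprints (−3.52 ± 0.34). mt-Nd4 (−4.38 ± 0.38) and mt-Nd2 (−3.79 ± 0.32), both complex I subunits, were lowest of the 13, and mt-Cytb of complex III lay at −3.08 ± 0.30. Subunits of the same complexes thus stood on opposite sides of the median gene according to the genome that codes for them. Neither the recovery of these ribosomes nor the tails of these RNAs was tested.

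Genes of protein breakdown, folding and secretion were high in near unison. All 33 proteasome subunits tested were called higher, 21 by over 2-fold, with a median of 1.41. Psmb7, a catalytic subunit of the core, had 57.1, 53.8 and 56.1 CPM of RNA and 261, 234 and 243 CPM of footprints (2.37 ± 0.07), and Psmb2 followed at 2.11 ± 0.08. Psmd2, a large subunit of the cap, was among the lowest at 0.38 ± 0.07. Footprints did not overlap RNA for Psmb7 and Psmb2.

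Of 33 chaperones, 26 were called higher and 3 lower, 18 being higher by over 2-fold, with a median of 1.30. Chaperones of the endoplasmic reticulum led. Pdia4, a disulphide isomerase, had 44.3, 38.6 and 40.7 CPM of RNA and 163, 212 and 244 CPM of footprints (2.55 ± 0.14). Hspa5 (BiP), the main Hsp70 of that compartment, had 242, 210.4 and 231 CPM of RNA and 680.1, 1052 and 1150.2 CPM of footprints (2.30 ± 0.19, adjusted p = 2.13e-05), with footprint library 1 the lowest of its 3. Pdia3 (2.27 ± 0.09) and Hsp90b1 (2.15 ± 0.12) lay close by. The lowest were chaperones of the cytosol and of synaptic vesicles, Dnaja1 (−0.69 ± 0.06) and Dnajc5 (−0.79 ± 0.07).

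Neuropeptides and granins, the cargo of dense-core vesicles, were called higher in 25 of 28 genes and lower in none (1 without RNA library 3), with 12 higher by over 2-fold and a median of 1.37. Sst (somatostatin), a peptide of interneurons, had 123, 91.8 and 130.1 CPM of RNA and 319.7, 353 and 333 CPM of footprints (1.77 ± 0.12). Npy had 27.3, 21.8 and 31.4 and 110.3, 71.9 and 87.8 CPM (1.97 ± 0.18), and Cck had 237, 192 and 235 and 527, 526 and 664 CPM (1.60 ± 0.11). Every footprint library exceeded every RNA library in these genes. Tac2 had the highest ratio of the list at 2.1995 ± 0.31, on RNA of 1.90, 1.69 and 1.91 CPM, and Scg5, a chaperone of prohormone convertase, lay at 1.94 ± 0.07. The list's summed RNA ran from 5061 to 5719 CPM and its footprints from 10303 to 10827 CPM.

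Glycolytic enzymes were mostly higher (13 of 17 IDs, 3 lower, or 1 lower with no filter on low counts, median 0.58), and Gapdh was the 1 lower by over 2-fold (2 genes were without footprint library 2). Gapdh had 716, 662 and 741 CPM of RNA and 88.4, 89.4 and 97.03 CPM of footprints (−2.72 ± 0.08, adjusted p = 1.60e-09), while Aldoc, the aldolase of astrocytes, had 689, 691 and 699.6 and 1171, 1442 and 1523 CPM (1.22 ± 0.09). RefSeq names 3 pseudogenes of Gapdh, so its value is uncertain. Tubulins, actins and neurofilaments were higher in 17 of 26 genes and lower in 5 (median 0.63), and near-identical family members lay far apart. Tuba1a had 428, 445 and 412 CPM of RNA and 49.1, 55.4 and 48.2 CPM of footprints (−2.85 ± 0.08), Tuba1b lay at −1.21 ± 0.09 and Tuba1c at 2.22 ± 0.13. Actb had 1027, 991 and 1028 CPM of RNA and 3971, 3645 and 3852 CPM of footprints (2.14 ± 0.07) and Actg1 lay at −0.63 ± 0.09. Reads that fit more than 1 of these genes may have been split or dropped differently in the 2 assays, since footprints are shorter, and this was not tested.

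Synaptic genes were called in both directions. Of 43 vesicle release genes, 21 were called higher and 14 lower (median 0.16). Slc32a1, the vesicular GABA transporter, had 48.6, 53.1 and 41.01 CPM of RNA and 179, 192 and 169 CPM of footprints (2.14 ± 0.10). Rab3a, a GTPase on synaptic vesicles, had 445, 444 and 453 and 1119, 1099 and 1123 CPM (1.54 ± 0.06). The lowest were the calcium sensor Syt7 (−1.78 ± 0.13) and the priming factor Unc13c (−2.84 ± 0.44). Of 21 genes of GABA-A receptors and the inhibitory synapse, 12 were higher and 6 lower (median 0.71). Iqsec3, a partner of the inhibitory scaffold, was among the lowest, with 286, 262 and 271 CPM of RNA and 87.1, 72.8 and 95.2 CPM of footprints (−1.46 ± 0.10). Gad1, which makes GABA, lay at 1.00 ± 0.08.

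Of 50 glutamate receptor and scaffold genes, 13 were higher and 24 lower, 3 and 10 of them by over 2-fold, with a median of −0.22. The obligate NMDA receptor subunit Grin1 (392, 431 and 440.0 CPM of RNA, 993, 986 and 1018 CPM of footprints, 1.47 ± 0.07) and the metabotropic receptor Grm3 (1.53 ± 0.08) were highest. The list's median lay 0.05 below that of genes in the same classes of transcript length, which are described further on. Scaffold proteins hold receptors in place under the postsynaptic membrane, and 4 of them with low ratios are given here, Shank3 and Dlgap3 chosen after their values were seen. Shank1 had 638, 626 and 675 CPM of RNA and 106, 87.96 and 101 CPM of footprints (−2.49 ± 0.08, adjusted p = 3.95e-09). Shank3 had 317, 305 and 320.0 and 73.7, 70.4 and 76.8 CPM (−1.87 ± 0.07), and Dlgap3 had 273, 239.6 and 279 and 55.9, 50.6 and 61.6 CPM (−2.01 ± 0.09). Homer2 was the lowest, with 117, 122 and 124 CPM of RNA and 14.8, 17.9 and 18.9 CPM of footprints (−2.59 ± 0.10). For all 4, footprints lay below RNA without overlap.

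Some of these mRNAs are known to travel into dendrites, where they can be translated on the spot. Of 30 dendritic mRNAs, 13 were called lower and 9 higher, with 8 lower and 2 higher by over 2-fold and a median of −0.03, so the list held both kinds. Ddn (dendrin) had 2028, 1869 and 2389 CPM of RNA and 336, 219 and 302 CPM of footprints (−2.65 ± 0.17). Kif5a, a motor of axonal and dendritic transport in the same list, had 2558, 2515 and 2433 and 361, 371 and 366 CPM (−2.55 ± 0.07). Actb and Grin1, described above, had the highest ratios of the list. Mbp and Mobp, mRNAs that oligodendrocytes carry out to the myelin, were low too. Mbp had 2887, 3383 and 2575 CPM of RNA and 534, 655 and 659 CPM of footprints (−2.03 ± 0.12), and Mobp had 1000.1, 1198 and 802 and 82.8, 77.3 and 81.8 CPM (−3.41 ± 0.14).

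Potassium, sodium, calcium and HCN channel genes leaned lower. Of 71 potassium channel genes, 34 were called lower and 15 higher (median −0.33). Kcnq3, a subunit of the M-current, had 283, 313 and 311 CPM of RNA and 30.9, 43.1 and 46.5 CPM of footprints (−2.69 ± 0.13). The leak channel Kcnk9 had 131, 156 and 149.9 and 18.4, 35.1 and 20.2 CPM (−2.35 ± 0.23). Kcna3 was on the high side (1.99 ± 0.19). Kcnj14 was the lowest, on 1.77, 1.44 and 1.83 CPM of RNA (−3.80 ± 0.57, and −4.66 without footprint library 3). Of 32 sodium, calcium and HCN channel genes, 20 were lower and 6 higher (median −0.44), among them Scn9a (−2.03 ± 0.34), against Scn7a (1.38 ± 0.20) and the calcium channel subunit Cacna2d3 (1.19 ± 0.08).

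Immediate-early genes, which neurons switch on with activity, were higher in 17 of 35 and lower in 4 (2 without footprint library 3), with a median of 0.70. Jund had 28.2, 29.8 and 26.3 CPM of RNA and 79.3, 85.8 and 102 CPM of footprints (1.89 ± 0.10). Bdnf, a secreted growth factor, had 38.3, 37.6 and 38.3 and 56.5, 51.1 and 50.7 CPM (0.70 ± 0.08). Btg2 was lowest, at −1.22 ± 0.15. Fos had the highest fitted ratio but an unsteady one. Its RNA was 8.86, 4.17 and 4.86 CPM and its footprints 8.47, 34.8 and 16.2 CPM, and footprint library 1 lay inside the RNA range. The log2 ratio was 1.95 ± 0.60 (adjusted p = 0.0297). It was 1.86 with adjusted p = 0.178 in the fit with same-numbered libraries paired, 1.30 without footprint library 2, and not called without RNA library 2 (adjusted p = 0.0823) or 3 (adjusted p = 0.111).

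Splicing factors and zinc finger transcription factors were low as groups. Of 40 splicing factors and CLK kinases, 27 were called lower and 5 higher, with a median of −0.69. Luc7l2 had 229.9, 305 and 243 CPM of RNA and 42.7, 51.1 and 50.1 CPM of footprints (−2.21 ± 0.12), and Clk4, a kinase of SR proteins whose own RNA is known to keep introns, had 77.1, 87.3 and 76.3 and 16.5, 23.1 and 18.2 CPM (−1.83 ± 0.12). Srsf4 (1.51 ± 0.10) and Hnrnph1 (0.53 ± 0.08) had the highest ratios. U2af1l4 had the lowest, with no footprints on RNA of 0.474, 0.563 and 0.513 CPM, at least 1.72-fold lower. Of 359 genes of the Zfp family, 208 were lower and 52 higher, with 75 lower and 4 higher by over 2-fold and a median of −0.58. Zfp970 had 11.9, 11.96 and 11.5 CPM of RNA and 0.504, 0.877 and 0 CPM of footprints (−4.53 ± 0.46, −5.36 without footprint library 2 and −3.86 without footprint library 3). Zfp973 and Zfp781 had no footprints on RNA of 0.923, 0.896 and 0.660 CPM and 0.624, 0.813 and 0.660 CPM, at least 2.76-fold and 2.33-fold lower. Zfp593 (3.90 ± 0.21), Zfp784 (5.50 ± 0.46) and Zfp708 (8.11 ± 0.69, and 9.18 without RNA library 2), all with RNA under 1 CPM, were the highest. Many Zfp genes have near-identical relatives, so the values of single members are uncertain. Of 21 clock genes, 10 were lower (6 with no filter on low counts) and 6 higher (3 without RNA library 1), with a median of −0.22, with Per3 (69.6, 84.01 and 83.5 CPM of RNA, 11.2, 13.9 and 15.5 CPM of footprints, −2.32 ± 0.13) and Clock (−1.41 ± 0.08) lowest and Nfil3 (0.77 ± 0.21) and Cry1 (0.69 ± 0.13) highest.

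The polyamine pathway, known for control by the amount of polyamine at nearly every step, was low. Of 13 tested members, 10 were called lower, 8 by over 2-fold, and 1 was higher, with a median of −1.59, or −1.33 with the 2 members that had no footprints at their bounds. Amd1, which makes the aminopropyl donor and has a uORF that stalls ribosomes, had 98.5, 96.7 and 100.5 CPM of RNA and 24.2, 23.1 and 27.5 CPM of footprints (−1.75 ± 0.09). Odc1, the first enzyme, had 61.2, 53.6 and 53.1 and 25.1, 19.3 and 17.7 CPM (−1.21 ± 0.13). Oaz1, the antizyme that marks it for breakdown and is read through a ribosomal frameshift, had 124, 117 and 125 and 27.9, 28.4 and 23.4 CPM (−1.97 ± 0.09), and Oaz2 lay at −1.59 ± 0.09. Sms (−1.92 ± 0.08), Sat1 (−1.33 ± 0.12), Paox (−2.19 ± 0.23) and the antizyme inhibitor Azin1 (−0.51 ± 0.07) were lower too. Spermidine synthase, Srm, was the exception, with 38.7, 36.8 and 40.8 CPM of RNA and 58.4, 72.9 and 64.96 CPM of footprints (0.98 ± 0.10).

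Both ferritin mRNAs were low. Fth1, the heavy chain, had 1874, 1672 and 1729.9 CPM of RNA and 418, 396 and 322 CPM of footprints (−1.99 ± 0.10, adjusted p = 4.63e-08). Ftl1, the light chain, had 90.8, 85.5 and 84.6 and 9.88, 14.8 and 10.5 CPM (−2.67 ± 0.13, adjusted p = 4.20e-08), and RefSeq names 2 pseudogenes of it. App, the amyloid precursor (1649, 1555 and 1576 CPM of RNA, 3466, 3305 and 3498 CPM of footprints, 1.33 ± 0.07), which carries a related hairpin, was on the other side. The 9 iron-regulated mRNAs tested held 4 called higher and 4 lower. Selenoproteins, which need a stop codon read as selenocysteine, were higher in 8 of 21 genes (13 with no filter on low counts) and lower in 4 (median 0.24), from Selenos (1.37 ± 0.11) and Selenoo (1.29 ± 0.10) to Selenow (−0.84 ± 0.11) and the thyroid hormone deiodinase Dio2 (−1.09 ± 0.19). Enzymes of sterol synthesis were higher in 14 of 20 and lower in 3 (median 0.62). Hmgcs1 (165, 177 and 157 CPM of RNA, 483, 444 and 377 CPM of footprints, 1.61 ± 0.10) and Msmo1 (1.46 ± 0.07) were high, and Lss (−0.83 ± 0.11) and Fdps (−1.39 ± 0.24) were low. Fdps RNA stood at 3.59, 3.88 and 3.84 CPM in hippocampus and at 41.8 CPM in forebrain.

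**Figure D3:**
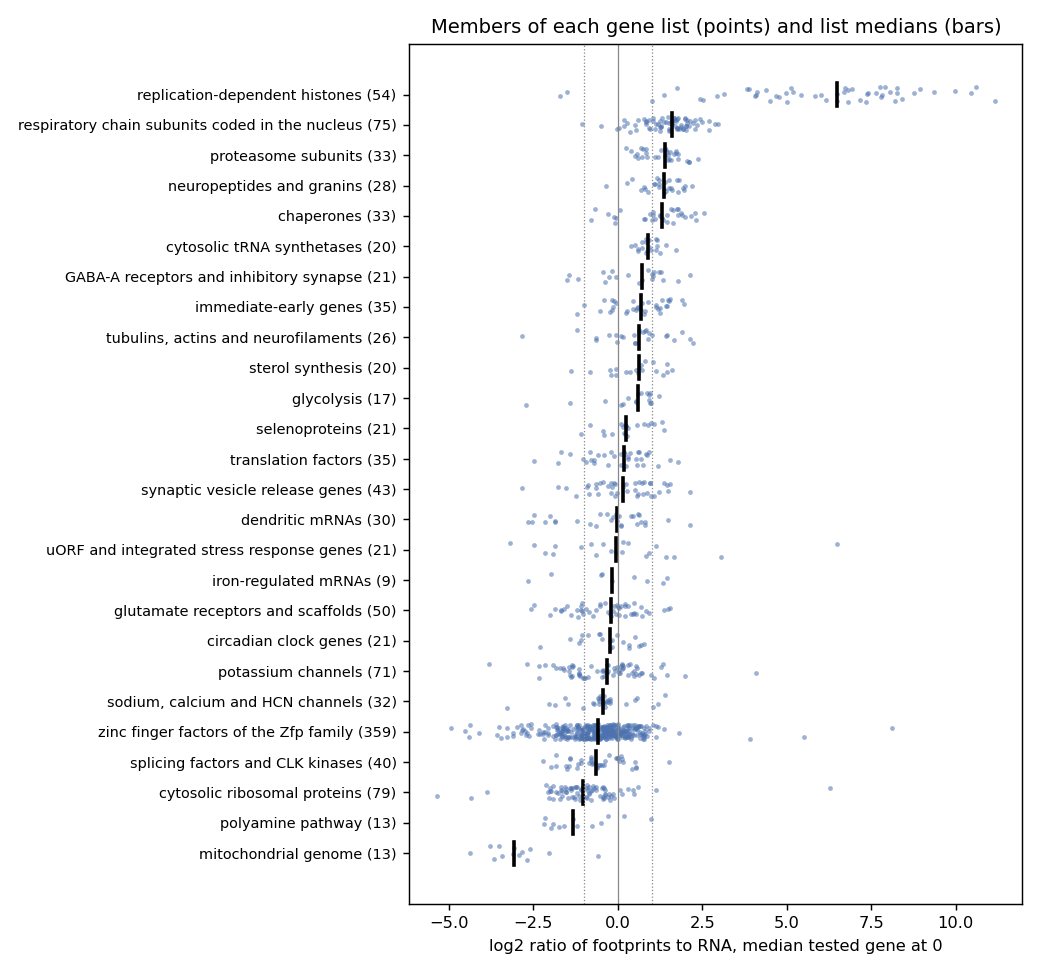
Log2 ratio of footprints to RNA (x, median tested gene at 0) of each tested member of 26 gene lists, 1 point a gene, with the list median as a bar; list sizes are in brackets and genes at 0 in an assay are drawn at their bound. Dotted lines mark 2-fold. Histones, respiratory chain, proteasome and neuropeptide genes have medians above 1, and ribosomal proteins, the polyamine pathway and the mitochondrial genome have medians below −1.

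Replication-dependent histone mRNAs end in a stem-loop in place of a poly(A) tail, and they had the highest ratios of any list. Of 54 tested, 52 were called higher and 2 lower (1 lower without any 1 of the RNA libraries or without footprint library 1 or 2), 51 being higher by over 2-fold. The median was 7.08, or 6.48 with the 9 genes at 0 in RNA at their bounds. Summed, their RNA ran from 68.1 to 75.98 CPM and their footprints from 973 to 1145 CPM, against 640 CPM in forebrain RNA made without poly(A) selection. Hist2h2bb was at 0 in every RNA library and at 78.01, 91.1 and 84.5 CPM in footprints, at least 1204-fold higher, and Hist1h4f was at 0 in RNA and at 27.3, 32.8 and 28.3 CPM in footprints, at least 419.7-fold higher. Hist1h1e, a linker histone, had 1.10, 0.917 and 0.733 CPM of RNA and 81.7, 69.9 and 95.1 CPM of footprints (6.71 ± 0.17) and 36.04 CPM in forebrain. Some members had more RNA in the poly(A) libraries, of which Hist1h2bc and Hist3h2ba were chosen after their values were seen. RNA is the denominator of the ratio, so more RNA goes with a smaller ratio by construction. Hist1h2bc had 16.5, 16.2 and 16.8 CPM of RNA (1.02 ± 0.09), Hist3h2ba 9.63, 9.33 and 12.1 CPM (1.35 ± 0.19), and Hist2h2be 7.16, 9.23 and 8.48 CPM with 1.41, 2.63 and 2.41 CPM of footprints (−1.72 ± 0.24). The share of these ratios that comes from the selection of RNA was not tested.

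Snhg11, a host gene of small nucleolar RNAs known as a long noncoding RNA, carried almost no footprints. Of 20 long noncoding RNAs listed, it was the 1 that the footprint files also held, and the annotation gives 1 of its transcripts as coding. Its RNA was at 1970.1, 2515 and 2051 CPM and its footprints at 1.91, 3.51 and 2.41 CPM, a log2 ratio of −9.49 ± 0.19 (adjusted p = 6.34e-10). No other gene among those counted well in both assays had a ratio as low.

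The 12 highest and 12 lowest ratios are given for coding genes called over 2-fold whose libraries did not overlap, with a mean of at least 10 CPM of footprints and at least 10 counts in every RNA library for the high set, and a mean of at least 10 CPM of RNA for the low set. Genes with fewer RNA counts had higher ratios still. Rbm42, an RNA-binding protein chosen after its values were seen, had 0.0748, 0.167 and 0.0978 CPM of RNA and 98.2, 97.9 and 111 CPM of footprints (9.95 ± 0.17). In the highest 12, RNA means ran from 0.337 to 3.09 CPM and footprint means from 21.2 to 310 CPM. Prrt2, a presynaptic protein linked to seizures (chr7:127017542-127021450), had 1.45, 1.71 and 1.74 CPM of RNA and 325, 314 and 292 CPM of footprints (7.79 ± 0.10, adjusted p = 2.40e-11), and 103 CPM in forebrain. Adnp, a chromatin regulator, had 2.74, 1.77 and 1.69 CPM of RNA and 161, 159.7 and 153 CPM of footprints (6.49 ± 0.16) and 12.6 CPM in forebrain. The others were Hist1h4h, Moap1, Scamp4, Vps25, Hist1h1e, Cpne1, Commd5, Rpl24, Ccpg1 and Aldoart2, the last with footprints of 37.3, 22.04 and 4.29 CPM that ranged widely (6.09 ± 0.98, and 5.43 without footprint library 1). In 11 of the 12, forebrain RNA was over 4-fold above hippocampus RNA, against 3.87% of all tested genes. A choice by high ratio favours genes with low hippocampus RNA, so this share is partly set by the choice itself. In 6 of the 12 another coding gene overlaps, against 19.6% of all tested genes. For Prrt2 the overlapping gene is Maz. The part of overlap, of unmarked strand and of gene models in these ratios was not tested.

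The 12 lowest all had no footprint in any of the 3 libraries, on RNA means from 13.8 to 67.8 CPM. Hipk4, a kinase (chr7:27523261-27531180), had 61.8, 71.96 and 69.5 CPM of RNA, at least 226-fold above its footprints. Klhl34, of the family of ubiquitin ligase adaptors, had 61.9, 60.6 and 68.5 CPM, at least 212-fold above. Igip (37.2, 45.3 and 40.4 CPM) was at least 137-fold and Srprb, a subunit of the signal recognition particle receptor (20.1, 20.7 and 20.97 CPM), at least 68.7-fold above. The rest were Rtl8b, Tnfrsf25, Fer1l5, Arxes2, Mfap1a, Rtl8a, Mfap1b and Ctnnd1, with bounds from 46.1-fold to 89.1-fold. Rtl8a and Rtl8b, Mfap1a and Mfap1b, and Arxes2 have near-identical copies, so their values are uncertain, and an exact 0 may also come from how reads were assigned. Over all tested genes, 21 had no footprints with RNA of at least 10 CPM, and 9 had no RNA count with footprints of at least 10 CPM. Of the latter, 2 were histones and 7 had at least 5 CPM in forebrain. Nme3 was 1 of them, with 29.4, 32.7 and 35.8 CPM of footprints, at least 464.9-fold higher, and it overlaps Mapk8ip3.

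**Figure D4:**
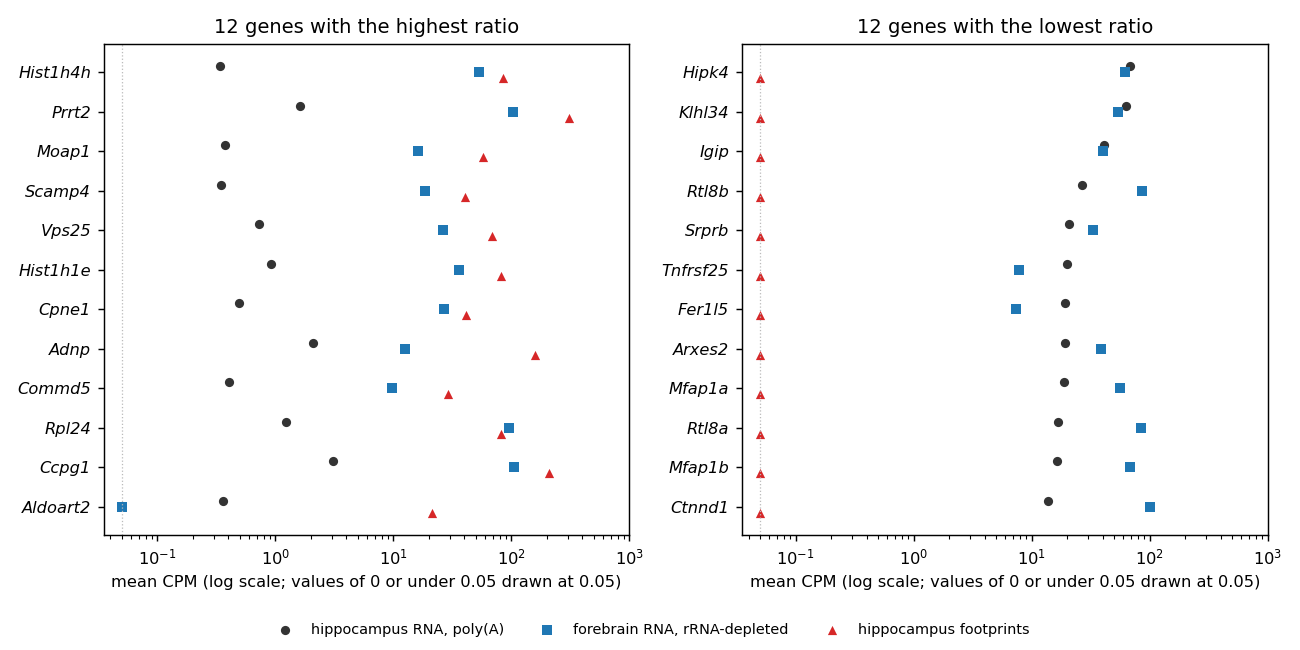
Mean CPM (log scale) of hippocampus RNA (circles), B6N forebrain RNA (squares) and hippocampus footprints (triangles) for the 12 genes with the highest ratio (left) and the 12 with the lowest (right). On the left forebrain RNA lies nearer to the footprints than to hippocampus RNA for most genes; on the right footprints are at 0 for all 12 and both RNA values lie above.

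A set of 7801 genes was then drawn up, after the values had been seen, to show the spread where both assays counted well: genes with an annotated coding transcript, which Snhg11 has, with RNA of at least 10 CPM, footprints of at least 1 CPM, hippocampus RNA within 4-fold of forebrain and no overlapping coding gene. In this set 10.1% of genes were higher and 13.4% lower by over 2-fold. Metallothionein Mt2, a small zinc-binding protein, was highest, with 14.7, 16.8 and 16.3 CPM of RNA and 257, 203 and 209.7 CPM of footprints (4.03 ± 0.11, adjusted p = 1.39e-09). Its relatives Mt1 (130.3, 139.8 and 149 CPM of RNA, 501, 543 and 608 CPM of footprints, 2.21 ± 0.09) and Mt3 (2.1979 ± 0.10) were also high. Next came Grcc10 (3.35 ± 0.12), the ubiquitin ligase adaptor Klhl11 (3.00 ± 0.09) and 4 respiratory chain subunits, with Bckdha of branched-chain amino acid breakdown among them (2.76 ± 0.10).

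Below Snhg11, the lowest of this set was Bcl2l2 (Bcl-w), which keeps neurons alive, with 118, 125 and 109.8 CPM of RNA and 3.02, 3.62 and 3.40 CPM of footprints (−4.91 ± 0.11, adjusted p = 7.27e-10). Hrk, which promotes death of neurons by binding proteins of that family, was low as well, with 59.95, 64.6 and 74.5 CPM of RNA and 1.61, 3.62 and 4.29 CPM of footprints (−4.15 ± 0.23). Tet2, which oxidises methylated cytosine, had 58.5, 62.2 and 59.1 and 1.71, 2.41 and 2.68 CPM (−4.49 ± 0.14). The calcium channel Orai2 had 195, 205 and 230.4 and 6.35, 8.12 and 9.47 CPM (−4.49 ± 0.13), and the deubiquitinase Josd1 had 69.4, 67.96 and 71.4 and 2.92, 3.29 and 2.59 CPM (−4.35 ± 0.11). In all of these genes the footprint libraries lay below the RNA libraries without overlap.

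Markers of hippocampal cells were present in both assays, and markers of tissue beside the hippocampus moved between libraries. Markers of interneurons had 11 of 13 genes called higher (median 1.33), including Pvalb (19.3, 22.2 and 22.4 CPM of RNA, 58.2, 59.8 and 49.9 CPM of footprints, 1.62 ± 0.10), and markers of microglia had 10 of 15 higher and 1 lower (median 0.72), the lower one being Itgam (−3.72 ± 0.35). Granule cells had 3 of 9 higher (5 with same-numbered libraries paired), including Calb1 (1.50 ± 0.11). Astrocytes had 8 of 15 higher, oligodendrocytes 5 of 16 with 6 lower (3 higher without RNA library 1 or without RNA library 3), and endothelium 6 of 12, led by the glucose transporter Slc2a1 (1.58 ± 0.14). Of 6 CA1 markers, 3 were called higher and 1 lower (median 0.28), with Wfs1 at 0.58 ± 0.14. The highest of the 6, and the 1 over 2-fold, was Dcn (2.25 ± 0.46), which is also in the list of meninges markers. The lower call among CA1 markers was lost with no filter on low counts, without RNA library 3 and with same-numbered libraries paired. Of 9 CA2 and CA3 markers, 4 were called higher and 3 lower (median 0.21), and Pcp4 was the lowest at −5.08 ± 0.35. In bulk libraries, fewer cells of a type and less RNA per cell cannot be told apart.

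The 12 choroid plexus markers summed to between 338 and 4588 CPM in RNA and between 7918 and 17144 CPM in footprints, with a median ratio of 1.86 and no gene called. This rested on RNA library 1: without it all 12 were called higher, each by over 2-fold, with a median of 3.69. With all libraries, DESeq2, limma and edgeR without robust weights each called 6 of the 12 higher, and the fit that pairs same-numbered libraries called 1. Ttr (transthyretin) had 2560.2, 134 and 70.4 CPM of RNA and 12965, 5838 and 8526 CPM of footprints. RNA library 1 held most of the RNA, and with it the ratio was 3.53 ± 1.71 (adjusted p = 0.131); without it the ratio was 6.67 (adjusted p = 0.00189). Folr1 showed the same single high RNA library (22.9, 1.67 and 1.32 CPM). Both genes were also called by DESeq2 (adjusted p = 0.00623 for Ttr and 0.0238 for Folr1), by limma and by edgeR without robust weights. Markers of the meninges were called higher in 9 of 10 genes, with sums of 79.2 to 98.0 CPM in RNA and 313 to 478 CPM in footprints. Col1a1 had 8.33, 9.10 and 13.1 CPM of RNA and 51.6, 43.5 and 41.3 CPM of footprints (2.38 ± 0.17), Ogn lay at 1.86 ± 0.13, and Dcn at 2.25 ± 0.46, which was not called with same-numbered libraries paired (2.14, adjusted p = 0.0616). Igf2 had 7.14, 1.79 and 1.44 and 122, 112 and 104 CPM (5.27 ± 0.69, and 6.31 without RNA library 1). Gh, the pituitary's growth hormone, had 0.524, 1.02 and 0.0733 CPM of RNA and 17.7, 102 and 60.7 CPM of footprints, and Prl (prolactin) 0.150, 0.729 and 0.147 and 2.02, 11.2 and 6.79 CPM. Thalamus markers summed to 141 to 443 CPM in RNA and 142 to 179 CPM in footprints. Levels of these markers thus differed between libraries of 1 assay, and their part in the ratio of any other gene was not tested.

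Long transcripts had lower ratios than short ones, on a scale that was not divided by coding length. Across the 14823 genes with a transcript length, Spearman's correlation of ratio and length was −0.247, as a description across genes of the same libraries. From the shortest of 10 equal length classes (median 861 bases) to the longest (median 6933 bases), the median ratio went from 0.64 to −0.46. Several groups stood away from the genes of their own length. Ribosomal proteins and nuclear respiratory chain subunits have nearly the same transcript length (list medians of 729 and 728 bases), and their medians were 1.55 below and 1.06 above the genes of their length classes. Proteasome subunits lay 1.03 above, neuropeptides 0.99 above, the polyamine pathway 1.80 below and Zfp genes 0.51 below. For sodium, calcium and HCN channels the distance was −0.12, so most of their low median was shared with other long transcripts. For potassium channels the distance was −0.14, against a median of −0.33. Ratios were also multiplied by transcript length, with the median gene again at 0, to stand nearer to footprints per mRNA molecule. List medians then changed sign for respiratory chain subunits (−0.22), sodium, calcium and HCN channels (0.80) and glutamate receptors (0.43). They kept their sign for ribosomal proteins (−2.87), the polyamine pathway (−1.60), Zfp genes (−0.37), proteasome subunits (0.50) and neuropeptides (0.53).

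**Figure D5:**
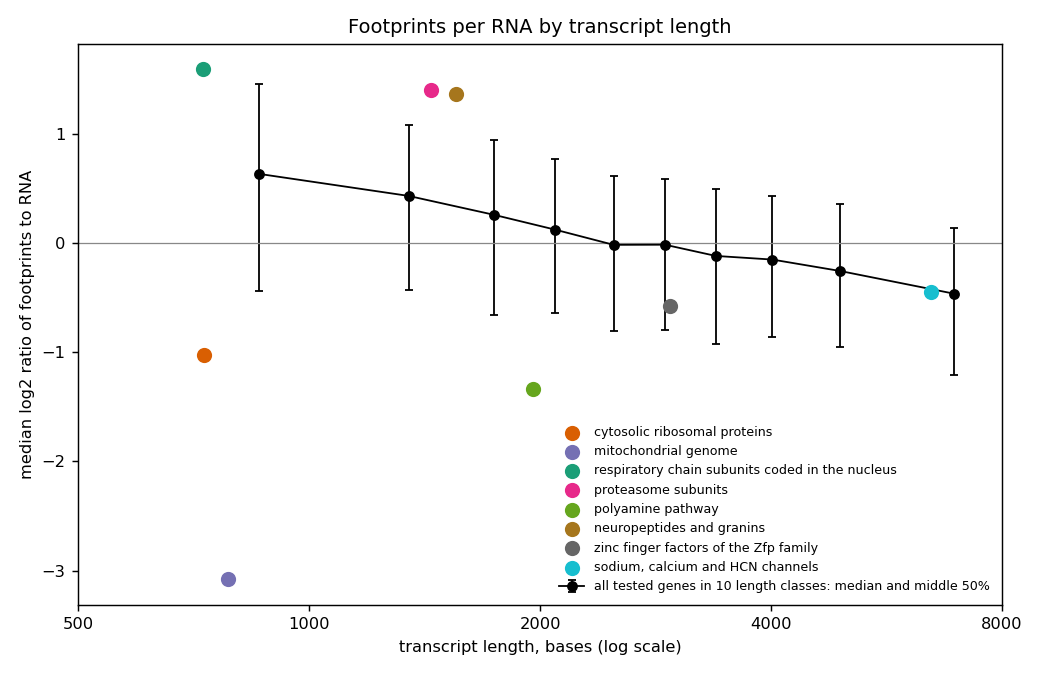
Median log2 ratio of footprints to RNA (y) against median transcript length (x, log scale) for all tested genes in 10 length classes (black, bars spanning the middle 50% of genes) and for 8 gene lists (colours). The classes run from 0.64 to −0.46; ribosomal proteins and respiratory chain subunits share a length and lie on opposite sides.

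The ratios were much the same in the hippocampus libraries of knockout mice, which share no sample with those above. Knockout RNA was also of batch 3 and knockout footprints of batch 4, so assay and batch cannot be told apart there either. Over 14683 genes tested in both genotypes, Spearman's correlation of the ratios was 0.940, given as a description. In knockout libraries 71.7% of tested genes were called, and of 3674 genes over 2-fold in B6N that were tested there, 3600 were called in the same direction. The list medians in knockout libraries were −1.23 for ribosomal proteins, 1.45 for respiratory chain subunits, 1.40 for proteasome subunits, 1.45 for neuropeptides and −1.76 for the polyamine pathway. Atf4 lay at −1.46 in knockout libraries against −2.15 in B6N, a difference of 0.72 (adjusted p = 0.0870). In the test of the difference between genotypes, edgeR called 0 of 15202 genes (0%), with 2261 at an unadjusted p under 0.05.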

How the data were processed

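RNA sequencing and ribosome profiling were compared in 3 RNA and 3 footprint libraries of B6N hippocampus, grouped by the labels. The hippocampus values are whole-number counts per gene, deposited by the authors as they counted them. Per the labels, RNA was poly(A)-selected and made into libraries with a kit that does not mark strand, and footprints followed a published protocol. Per the submitters' processing notes, the tools were featureCounts, Bowtie2 2.2.3, HISAT2 2.1.0 and kallisto 0.42.4, with no roles named, on mm10. Which reads were counted, on which strand, and how shared reads were treated is not given in these sources. Forebrain libraries were deposited by the authors as estimated counts and TPM per transcript; the estimated counts were summed per gene to CPM, used as a second RNA reading, and the deposited TPM only weighted transcript lengths within a gene. Symbols came from the authors' forebrain transcript names, and coordinates, overlaps and pseudogenes from RefSeq (14526 of the tested symbols matched).

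Genes in both file types with at least 10 counts by edgeR's filter were fitted with edgeR 4.0.16 (R 4.3.3), robust quasi-likelihood, two-sided, with TMM factors within each assay over the shared genes, assay as the single term and the median tested gene set to 0. Genes were called at an adjusted p (Benjamini-Hochberg over all 14838) under 0.05, and "over 2-fold" used edgeR's test against a 2-fold difference. The biological coefficient of variation was 12.3%. The fit was tested on simulated data over 14776 genes with 100 genes at 2-fold and 100 at 4-fold. It recovered 100% of them at each size, and 1.96% of its calls were false. In that simulation few genes changed, none of them low in counts, every gene had the same biological variation, and there was no batch. These rates therefore do not carry over to the calls made here. A planned fit per length, with coding length for footprints, could not be made because the files and reference used here held no coding lengths, so the fit as counted leads.

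Named genes were Atf4, the 12 highest and 12 lowest ratios over 2-fold with no overlap between assays (footprints of at least 10 CPM and 10 RNA counts a library, or RNA of at least 10 CPM), and the 2 highest and 2 lowest of each list (every member where 12 or fewer were tested), of which some, mostly in marker lists, are covered by their counts alone; the condition that a gene also be called per length fell away. All members and lists were chosen with earlier results of these data known, and genes named outside this rule were chosen after their values were seen, among them Bdnf, Bcl2l2, Eef1a1, Gad1, Gh, Mt1, Mt2, Nme3, Odc1, Pvalb, Rps6, Shank3 and Sst. Same-numbered RNA and footprint libraries deviated together from their group means (correlations of 0.164, 0.116 and 0.121 over 13057 genes), so the numbers were taken to pair the samples. Correlations of libraries of unlike number ran from −0.174 to 0.087. The leading fit left the pairing out, and its SE and p-values do not use it. No 2 libraries agreed within counting noise. Alternatives were other scalings, filters and tools (DESeq2 1.42.0, limma 3.58.1), the pairing and leaving out each library. Limits at 0 cover counting error only. Each SE was worked back from the log2 ratio and the F statistic of edgeR's test, so it also holds the spread between libraries.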

Additional observations from a re-analysis of the deposited data

How the results depend on the processing

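The 5439 genes called higher and 5366 called lower, and the 1525 and 2191 over 2-fold, stayed within 1.5 times of these counts under TMM over all 6 libraries, library size alone, DESeq2, limma, no filter, a filter of at least 50 counts, a fit without robust weights and leaving out each library. The lowest and highest counts without 1 library were 4904 and 5522 higher, 4874 and 5368 lower, 1249 and 1564 over 2-fold higher, and 1919 and 2149 over 2-fold lower. DESeq2 gave 1184 and 1700 over 2-fold. TMM over all 6 libraries without centring gave 5197 higher and 5597 lower. Restricting to well counted genes, an alternative chosen after seeing the data, left 3176 higher, 3035 lower, 791 over 2-fold higher and 1042 over 2-fold lower because fewer genes were tested. With the replicate block that pairs same-numbered libraries the counts were 5429, 5339, 1539 and 2159, and of the 192 named genes called, Fos and Dcn were the 2 not called. Counts over 2-fold within a list moved by over 1.5 times under some setting for several lists, among them stress response genes, tRNA synthetases, immediate-early genes, GABA-A receptors, vesicle release genes, both channel lists and Zfp genes, and among lists with 1 or 2 such calls tubulins with actins, selenoproteins, ribosomal proteins and glycolysis, and several marker lists; potassium channels had 14 lower, and 8 by limma. With at least 50 counts, 7 histones were tested, 6 of them higher. The alternatives planned for the fit per length were not run, since that fit could not be made, and the knockout libraries are given as a description. Depth limits the ratios of genes with few RNA counts or no footprints, which are given as bounds.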
